A study of Mus musculus with 8 samples.

Results

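Myeloid Fc receptors and the kinases next to them were followed in mouse liver through 7 genes: the IgG receptors Fcgr1, Fcgr3 and Fcgr4, their shared signalling chain Fcer1g, and the kinases Syk, Lyn and Fgr. They were chosen by gene symbol from the 16122 protein-coding genes of the deposited count table, and all 7 were found there and passed the filter on low counts. Bulk liver RNA of male C57BL/6J mice, all of wild-type genotype, was sequenced in 8 libraries, 4 in a group labelled NASH (nonalcoholic steatohepatitis, fatty liver with inflammation) and 4 in a group labelled WT. The mice were bought at 8 weeks of age and then ate either a normal diet or one high in fat, cholesterol and fructose for 28 weeks. Which group ate which diet is not labelled, and NASH is taken here, as an interpretation, for the rich diet and WT for the normal one. The labels number the libraries but do not say that each came from its own mouse, so each p-value reflects only how these libraries vary, which may be technical. The libraries summed to 25760117 to 32684719 counts, and in the bulk tissue fewer cells of a type and less RNA per cell cannot be told apart. NASH replicates 1 and 4 had nearly equal totals, at 26270597 and 26270596 counts. They held equal counts for 1240 of the 16122 genes and were kept as separate libraries, and the cause of the near-equal totals was not tested.

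Fc receptors bind the constant part of antibodies and so link antibody-coated particles to phagocytes. In the mouse the activating IgG receptors carry no signalling motif of their own and depend on the Fcer1g chain, both for a place on the cell surface and for an immunoreceptor tyrosine-based activation motif (ITAM). Src-family kinases such as Lyn and Fgr phosphorylate the ITAM, Syk docks on it, and adaptors, lipid enzymes and actin regulators then drive phagocytosis. Fcgr2b is the inhibitory IgG receptor, which recruits the lipid phosphatase encoded by Inpp5d. In liver, Kupffer cells and incoming monocyte-derived macrophages carry the activating receptors, while sinusoidal endothelium is rich in Fcgr2b.

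The sequences just upstream of the activating receptor genes are shown with that of Fcgr2b, because these genes are relatives with different values in the groups. They are RefSeq promoter sequences on GRCm38.p6, 150 bases ending at the annotated start, read 5′ to 3′ on the gene's strand. Capitals mark CTTCCTCT, the reverse complement of AGAGGAAG, a purine-rich word with the core that ETS factors such as PU.1 recognise.
Fcgr1 promoter, chr3:96293970-96294119, minus strand: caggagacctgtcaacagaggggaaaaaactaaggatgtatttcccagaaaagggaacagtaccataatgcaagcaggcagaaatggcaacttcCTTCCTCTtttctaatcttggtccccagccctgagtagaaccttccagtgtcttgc
Fcgr3 promoter, chr1:171059395-171059544, minus strand: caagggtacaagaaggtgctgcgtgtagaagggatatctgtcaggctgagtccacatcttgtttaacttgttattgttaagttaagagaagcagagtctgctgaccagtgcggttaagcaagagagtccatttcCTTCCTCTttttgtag
Fcgr4 promoter, chr1:171018776-171018925, plus strand: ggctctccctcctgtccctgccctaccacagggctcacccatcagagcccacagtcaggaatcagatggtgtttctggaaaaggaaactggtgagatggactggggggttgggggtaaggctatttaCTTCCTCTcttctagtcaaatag
Fcgr2b promoter, chr1:170976072-170976221, minus strand: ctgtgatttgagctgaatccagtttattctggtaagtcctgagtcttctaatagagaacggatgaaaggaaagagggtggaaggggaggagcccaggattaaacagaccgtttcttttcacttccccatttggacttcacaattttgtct
The word lies at −56 to −49 in Fcgr1, at −23 to −16 in Fcgr4, and at −16 to −9 before the second of the RefSeq starts of Fcgr3, counted back from the start. Before the first RefSeq start of Fcgr3 no match to AGAGGAAG was found, and the second was printed because it holds the word. The word was searched on both strands, and it was chosen after these promoters had been read, so its presence is a description. Of 32851 RefSeq promoters, 3.67% hold AGAGGAAG within 250 bases upstream, and 23.3% hold the shorter GAGGAA that lies inside it. AGAGGAAG was not matched in that window of Fcer1g, Syk, Fgr or Fcgr2b. The ETS core inside it, GGAA, is shorter. Read on either strand, that core occurs unmarked in the Fcgr2b sequence shown, and within 150 bases upstream of Fcer1g and Fgr. GAGGAA, which holds the core, lies at −9 to −4 before the second RefSeq start of Syk. It also lies at −6 to −1 before the first RefSeq start of Fcgr3. The Fcgr1 window also holds TTCNNNGAA, a STAT-type word, at −109 to −101, as do 7.02% of promoters. Promoter entries were found for 6 of the 7 genes, and Lyn had none.

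Of the 7 genes, 6 rose in NASH and Lyn did not pass the test (edgeR quasi-likelihood F-test, Benjamini-Hochberg adjusted p under 0.05 over 12351 genes). Over all genes tested, 12.9% were called higher in NASH. For 7 of 7 genes every NASH library lay above every WT library, as it did for 14.6% of all genes tested. Their log2 fold changes had a median of 2.24, against 0.01 over all genes tested. The 7 genes and the lists below were chosen with earlier results of these data known. Counts set beside the shares over all genes are therefore descriptions. NASH replicate 3 was the highest library for 7 of 7 genes, and NASH replicates 1 and 2 were the lowest NASH libraries for 4 and 3 of them. Among WT libraries, replicate 2 was highest for 6 genes and replicate 3 lowest for 6. Each level is in CPM, a count divided by the library's total on a common scale, after edgeR's TMM scaling, which sets each library against the others by most of its genes.

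**Figure D1:**
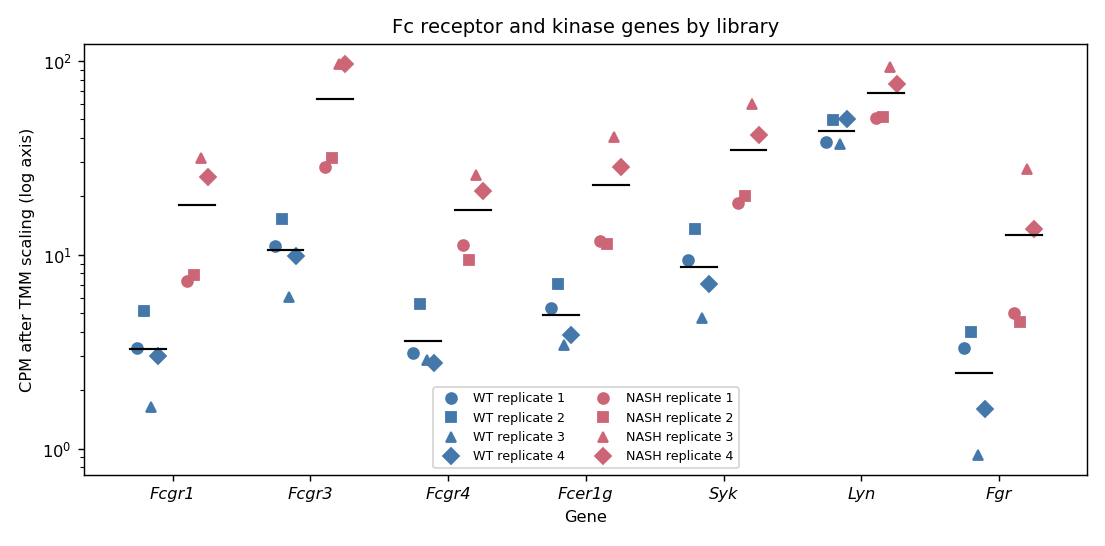
CPM after TMM scaling, on a log axis, of the 7 genes in each of the 4 WT (blue) and 4 NASH (red) libraries, with one symbol per replicate number and a black line at the group mean. NASH replicates 3 and 4 lie above NASH replicates 1 and 2 for each gene, and the Lyn groups come closest, at 50.3 CPM in the highest WT and 50.9 CPM in the lowest NASH library.

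Fcgr3 (ENSMUSG00000059498, chr1:171051174-171064935, minus strand), the low-affinity activating IgG receptor, was measured at 11.03, 15.3, 6.03 and 9.79 CPM in WT replicates 1 to 4 and at 28.3, 31.6, 96.7 and 95.9 CPM in NASH replicates 1 to 4. NASH replicates 3 and 4 held about the same level, and the lowest NASH library stood 1.85 times above the highest WT library. Its mean rose from 10.5 ± 3.81 to 63.1 ± 38.3 CPM (SD, n = 4 each), a log2 fold change of 2.59 ± 0.47 (SE, edgeR adjusted p = 0.0109). Of the 50-base stretches in Fcgr3 transcripts, 9.58% also occur in Fcgr2b, so a small part of the reads of these neighbours may be split or lost.

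Fcgr1 (ENSMUSG00000015947, chr3:96282909-96293969, minus strand) encodes the high-affinity IgG receptor. Its level was 3.29, 5.14, 1.64 and 3.01 CPM in the WT libraries and 7.33, 7.88, 31.5 and 25.2 CPM in the NASH libraries, from 48 to 141 and from 186 to 1241 counts. The groups did not overlap, and the NASH libraries fell into a pair near 7.6 CPM and a pair near 28.3 CPM, which are the means of replicates 1 and 2 and of replicates 3 and 4. The mean rose from 3.27 ± 1.44 to 17.97 ± 12.2 CPM (SD, n = 4 each, with log2 change 2.46 ± 0.54 SE, edgeR adjusted p = 0.0175). This call was lost without WT replicates 1, 3 or 4 (adjusted p = 0.0563, 0.0512 and 0.0516).

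Fcgr4 (ENSMUSG00000059089, chr1:171018920-171029761, plus strand) is an activating IgG receptor of mouse monocytes, macrophages and neutrophils. It stood at 3.12, 5.58, 2.88 and 2.76 CPM in WT replicates 1 to 4 and at 11.2, 9.40, 25.7 and 21.3 CPM in NASH replicates 1 to 4. WT replicate 2 was high for its group and still below each NASH library. The mean rose from 3.58 ± 1.34 to 16.9 ± 7.87 CPM (SD, n = 4 each, with log2 change 2.24 ± 0.38 SE), with an edgeR adjusted p of 0.00847, the smallest of the 7 genes.

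Fcer1g (ENSMUSG00000058715, chr1:171229572-171234365, minus strand), the ITAM chain that these receptors share, was at 5.31, 7.07, 3.43 and 3.85 CPM in WT and at 11.8, 11.4, 40.5 and 28.1 CPM in NASH. NASH replicates 3 and 4 were again high, and the groups did not overlap. The mean rose from 4.91 ± 1.65 to 23.0 ± 14.1 CPM (SD, n = 4 each, with log2 change 2.23 ± 0.45 SE, edgeR adjusted p = 0.0134). The calls of Fcgr3, Fcgr4 and Fcer1g held whichever of the 8 libraries was left out.

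Syk (ENSMUSG00000021457, chr13:52583173-52648792, plus strand) encodes the kinase that docks on phosphorylated ITAMs. Its level was 9.35, 13.5, 4.73 and 7.07 CPM in the WT libraries and 18.4, 20.2, 59.5 and 41.2 CPM in the NASH libraries. The groups did not overlap, and the lowest NASH library stood 1.36 times above the highest WT library. The mean rose from 8.67 ± 3.75 to 34.9 ± 19.5 CPM (SD, n = 4 each, with log2 change 2.01 ± 0.44 SE, edgeR adjusted p = 0.0168). This call was lost without WT replicate 1 or WT replicate 4 (adjusted p = 0.0529 and 0.0512).

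Fgr (ENSMUSG00000028874, chr4:132974095-133001910, plus strand), a Src-family kinase of myeloid cells, was the most variable of the 7. It stood at 3.29, 3.97, 0.92 and 1.61 CPM in WT and at 5.0, 4.52, 27.6 and 13.6 CPM in NASH, from 27 counts in WT replicate 3 to 1087 in NASH replicate 3. NASH replicates 1 and 2 lay just above the highest WT library, and NASH replicate 3 stood 6.11 times above NASH replicate 2. The mean rose from 2.45 ± 1.42 to 12.7 ± 10.8 CPM (SD, n = 4 each, with log2 change 2.38 ± 0.66 SE, edgeR adjusted p = 0.0362). Without NASH replicate 3 the log2 fold change was 1.64 (adjusted p = 0.0792). The call was also lost without NASH replicate 4 (adjusted p = 0.0809) and without WT replicates 1, 2, 3 or 4 (adjusted p = 0.0795, 0.0550, 0.0868 and 0.0943).

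Lyn (ENSMUSG00000042228, chr4:3678115-3813122, plus strand), a Src-family kinase that acts in both activating and inhibitory pathways, had the smallest difference. Its level was 38.0, 49.3, 37.1 and 50.3 CPM in WT and 50.9, 51.3, 93.2 and 76.1 CPM in NASH. NASH replicates 1 and 2 were level with WT replicates 2 and 4, and NASH replicates 3 and 4 were higher. The means were 43.7 ± 7.07 and 67.9 ± 20.6 CPM (SD, n = 4 each), with a log2 fold change of 0.64 ± 0.21 (SE, edgeR adjusted p = 0.0634). The difference passed without NASH replicate 1 or NASH replicate 2 (adjusted p = 0.0242 and 0.0481), and with library totals in place of TMM (log2 fold change 1.05, adjusted p = 0.0298). Of the 50-base stretches in Lyn transcripts, 13.4% also occur in the pseudogene Gm11787, and 248 exon bases overlap the lincRNA Gm26857 on the other strand. The strand setting of the counting is not given in the sources used here, so reads of that overlap cannot be assigned.

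Per kilobase of exon, Lyn stood first in WT livers at 10.7 ± 1.74 CPM per kb, followed by Fcgr3 at 6.07 ± 2.20, Fcer1g at 5.62 ± 1.89, Fcgr4 at 2.85 ± 1.07, Fcgr1 at 1.26 ± 0.556, Syk at 0.926 ± 0.400 and Fgr at 0.634 ± 0.368 (SD, n = 4). Of the neighbours in that order, only Lyn and Fcgr3, and Fcgr4 and Fcgr1, had ranges that did not overlap. In NASH livers Fcgr3 came first at 36.4 ± 22.1 CPM per kb, followed by Fcer1g at 26.3 ± 16.1, Lyn at 16.7 ± 5.05, Fcgr4 at 13.5 ± 6.27, Fcgr1 at 6.94 ± 4.73, Syk at 3.72 ± 2.08 and Fgr at 3.28 ± 2.79. There the ranges of all neighbours overlapped. Lyn thus led in WT but came after Fcgr3 and Fcer1g in NASH. The inhibitory receptor Fcgr2b stood at 12.1 CPM per kb in WT and 14.2 CPM per kb in NASH. Its WT mean lay above the Fcgr3 mean and its NASH mean below it.

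Fcgr2b (ENSMUSG00000026656, chr1:170958617-170976547, minus strand) did not pass the test. It had 69.9 ± 5.40 CPM in WT and 81.9 ± 15.7 CPM in NASH (SD, n = 4 each, with log2 change 0.23 ± 0.14 SE, edgeR adjusted p = 0.263), and the groups overlapped. With library totals in place of TMM its log2 fold change was 0.60 (adjusted p = 0.0451). A difference between genes inside one library does not depend on that scaling. The log2 CPM of Fcgr1 less that of Fcgr2b was −4.49 ± 0.70 in WT and −2.46 ± 0.91 in NASH (SD, n = 4 each), which is 2.03 higher in NASH. For Fcgr3 the difference was −2.79 ± 0.59 and −0.59 ± 0.77, and for Fcgr4 −4.32 ± 0.43 and −2.38 ± 0.55. In each of these 3 pairs every NASH library lay above every WT library, as for 10.2% of all genes less Fcgr2b. As sinusoidal endothelium is rich in Fcgr2b, such a pair may set genes of different cell types against each other. Sinusoidal endothelial markers summed to 154 to 263 CPM in WT, and to 192, 227, 232 and 388 CPM in NASH replicates 1 to 4. Only NASH replicate 4 lay above the WT range. Of the 5 markers tested, 5 did not pass, beside 18.9% of all genes called in either direction. Stab2 was under 1 CPM in every library. The part of these markers in the differences from Fcgr2b was not tested.

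The other Fc receptors gave 1 rise among 5 tested members, with 4 not passing, beside 18.9% of all genes called in either direction. Fcrl1, a receptor-like gene of B cells, rose from 0.299 ± 0.231 to 1.73 ± 1.19 CPM (SD, n = 4 each, with log2 change 2.54 ± 0.74 SE, edgeR adjusted p = 0.0412), and lost its call when any one library other than NASH replicates 1 and 2 was left out (adjusted p = 0.0562 to 0.111). Fcgrt, the neonatal Fc receptor that recycles IgG and albumin, had 95.2 ± 23.8 CPM in NASH and 110 ± 4.81 in WT (log2 fold change −0.21, edgeR adjusted p = 0.394), and 0.11 with library totals. Pigr, which carries IgA into bile, had a log2 fold change of −0.69 (adjusted p = 0.0753), and −0.90 without NASH replicate 1 (adjusted p = 0.0162). A further 6 listed receptors were too low to test. Among soluble ligands 1 of 3 tested rose, beside 12.9% of all genes called higher. The antibody chain gene Ighg2c did not pass (log2 fold change 0.99, edgeR adjusted p = 0.279). Ighg1, Ighg2b, Ighg3, Ighm, Igha and Igkc were not matched among the genes counted. Apcs, the pentraxin serum amyloid P that binds Fc gamma receptors, rose from 33.4 ± 1.94 to 282 ± 274 CPM (SD, n = 4 each, with log2 change 3.08 ± 0.69 SE, edgeR adjusted p = 0.0183). Without NASH replicate 3 the log2 fold change was 2.25, and the call was lost without WT replicates 1, 2, 3 or 4 (adjusted p = 0.0585, 0.0509, 0.0564 and 0.0519). Crp, the other listed pentraxin tested, had a log2 fold change of −0.27 (adjusted p = 0.391), and 0.05 with library totals.

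Fcer1g has a sister chain, Tyrobp, which serves Trem and related receptors through the same ITAM-to-Syk route. Tyrobp rose from 5.76 ± 1.71 to 30.7 ± 19.0 CPM (SD, n = 4 each, with log2 change 2.42 ± 0.45 SE, edgeR adjusted p = 0.0112), and the call held with each library left out. Fcer1g less Tyrobp, in log2 CPM, was −0.24 ± 0.57 in WT and −0.40 ± 0.14 in NASH, and the groups overlapped. Tyrobp was the 1 of 4 tested ITAM chains that rose, and Hcst, a related chain without an ITAM, was too low to test. Of the receptors that pair with Fcer1g, 2 of 3 tested rose, led by Clec4e, a C-type lectin for glycolipids and dead cells, at 0.192 ± 0.163 CPM in WT and 3.27 ± 2.97 in NASH (log2 fold change 4.10 ± 0.81 SE, edgeR adjusted p = 0.0128, and 3.21 without NASH replicate 3). Of those that pair with Tyrobp, 5 of 8 tested rose, with a median log2 fold change of 2.73, beside 12.9% of all genes called higher. Trem2, a lipid-sensing receptor, led them at a log2 fold change of 6.69 ± 0.78 (SE, edgeR adjusted p = 0.00343), and 7.33 without WT replicate 1. Trem2 stood at 0.173 ± 0.156 CPM in WT, from 1 to 9 counts, and at 17.6 ± 12.8 CPM in NASH (SD, n = 4 each). The size of its change thus rests on very low WT levels.

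Of 9 other tested kinases of the Src, Syk and Tec families, 5 rose, 1 fell and 3 did not pass, and their median log2 fold change was 0.62. The shares over all genes tested were 12.9% called higher and 6.00% called lower. Src rose by 1.74 ± 0.43, Fyn by 0.62 ± 0.14 and Btk, a Tec-family kinase of B and myeloid cells, by 1.59 ± 0.45 (log2 scale, SE, n = 4 each, edgeR adjusted p = 0.0246, 0.0197 and 0.0387). Tec fell by 0.62 ± 0.14 on the log2 scale (edgeR adjusted p = 0.0176), and with library totals its adjusted p was 0.0930. Zap70, the Syk relative of T cells, had a log2 fold change of −1.0 (adjusted p = 0.121), and Yes1 one of −0.29 (adjusted p = 0.0718), which was 0.07 with library totals. Leaving out single libraries ended calls as follows. Src was lost without WT replicates 1, 2 or 3 or NASH replicate 4 (adjusted p = 0.0662 to 0.0725), and Fyn without WT replicates 1 or 3 or NASH replicate 4 (0.0621 to 0.0679). Btk was lost without WT replicates 1, 3 or 4 or NASH replicates 2, 3 or 4 (0.0512 to 0.10), and Tec without WT replicates 1 or 3 (0.0540 and 0.0511).

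**Figure D2:**
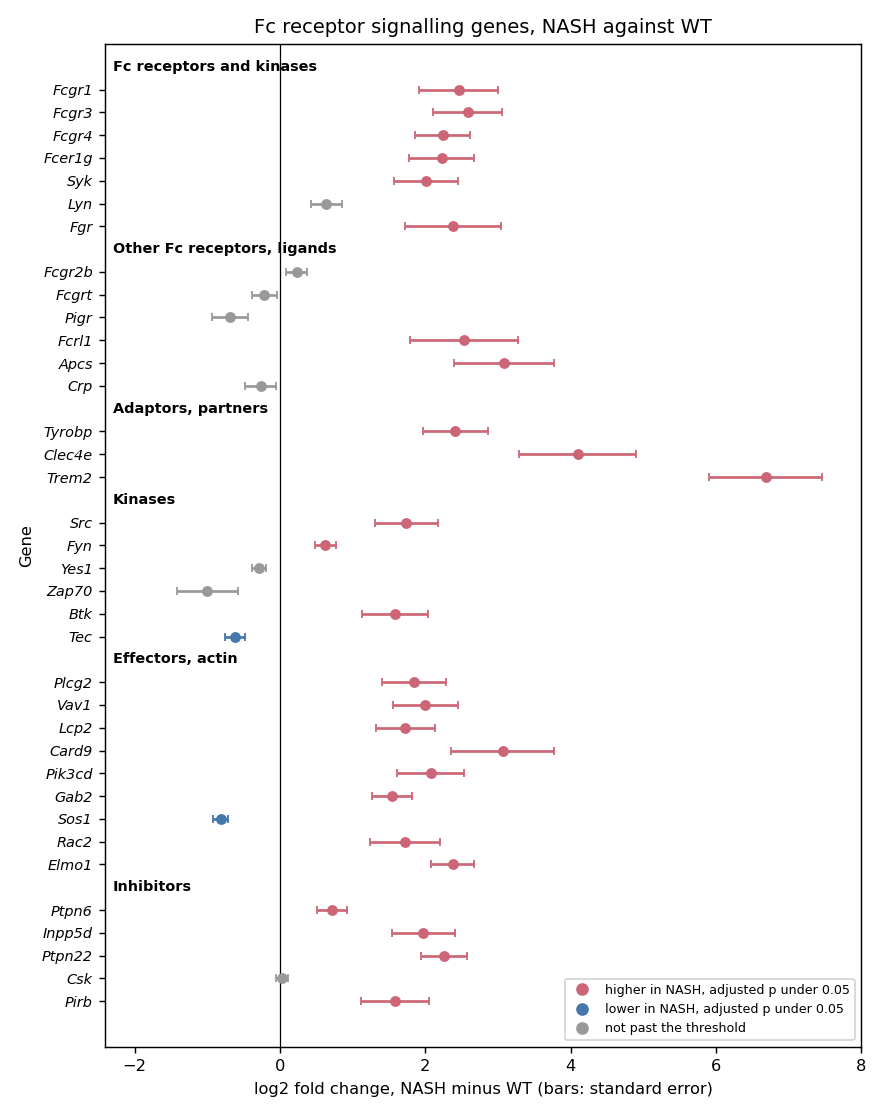
Log2 fold change of NASH minus WT, with standard error bars (n = 4 libraries a group), for the 7 genes and for related genes grouped by role. Red and blue points passed the edgeR threshold upward and downward and grey points did not, and Lyn, Fcgr2b and Csk lie closer to 0 than the activating receptors.

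Downstream of Syk, 12 of 24 tested effector genes rose, 1 fell and 11 did not pass, with a median log2 fold change of 1.15. The shares over all genes tested were 12.9% called higher and 6.00% called lower. Plcg2, the phospholipase that raises calcium, rose by 1.85 ± 0.43, Vav1, an exchange factor for Rac, by 2.0 ± 0.45, and the adaptor Lcp2 by 1.72 ± 0.41 (log2 scale, SE, n = 4 each, edgeR adjusted p = 0.0209, 0.0180 and 0.0212). Card9, an adaptor to NF-kB, rose by 3.07 ± 0.71 and the lipid kinase subunit Pik3cd by 2.08 ± 0.46 (edgeR adjusted p = 0.0194 and 0.0177). Card9 was low in WT, at a mean of 0.302 CPM and 5 to 12 counts. Gab2, a docking adaptor, rose by 1.54 ± 0.28 (edgeR adjusted p = 0.00978), and held with each library left out. Sos1, an exchange factor for Ras, fell from 94.2 ± 5.98 to 53.5 ± 5.78 CPM (log2 fold change −0.82 ± 0.11 SE, edgeR adjusted p = 0.0042), and held likewise. Plcg2 was lost without WT replicates 1, 3 or 4 or NASH replicate 4 (adjusted p = 0.0531 to 0.0635), and Vav1 without WT replicates 1 or 3 (0.0585 and 0.0511). Lcp2 was lost without WT replicates 1, 3 or 4 or NASH replicate 4 (0.0594 to 0.0659), and Pik3cd without the same 4 libraries (0.0502 to 0.0548). Card9 was lost without WT replicates 1, 3 or 4 or NASH replicate 4 (0.0508 to 0.0624), and without NASH replicate 3 its log2 fold change fell to 2.33.

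Of 18 genes for actin and engulfment, 14 rose and 4 did not pass, with a median log2 fold change of 1.69. The share of all genes called higher was 12.9%. Elmo1, which activates Rac with Dock partners, rose from 2.38 ± 0.37 to 12.4 ± 5.19 CPM (SD, n = 4 each, with log2 change 2.38 ± 0.30 SE, edgeR adjusted p = 0.00378), and held with each library left out. Rac2, the Rac form of blood cells, rose by 1.72 ± 0.48 on the log2 scale (edgeR adjusted p = 0.0359). Its call was lost when any one library other than NASH replicates 1 and 2 was left out (adjusted p = 0.0662 to 0.0950).

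Of 23 tested genes listed as inhibitors of the pathway, 15 rose and 8 did not pass, with a median log2 fold change of 1.78. The share of all genes called higher was 12.9%. The list includes phosphatases such as Ptprc and Ptpn11, and its members need not act only as inhibitors. Inpp5d, the phosphatase recruited by Fcgr2b, rose from 5.39 ± 1.79 to 21.2 ± 12.2 CPM (SD, n = 4 each, with log2 change 1.98 ± 0.43 SE, edgeR adjusted p = 0.0166), and was lost without WT replicate 1 (adjusted p = 0.0537). Ptpn22, a phosphatase for Src and Syk family kinases, rose by 2.26 ± 0.31 (edgeR adjusted p = 0.00489), and held with each library left out. Ptpn6, the phosphatase SHP-1, rose by 0.72 ± 0.21 (edgeR adjusted p = 0.0395), and Pirb, an inhibitory receptor of myeloid and B cells, by 1.59 ± 0.47 (adjusted p = 0.0437). Both were lost without WT replicates 1, 3 or 4 or NASH replicates 3 or 4 (adjusted p = 0.0711 to 0.108 for Ptpn6 and 0.102 to 0.119 for Pirb). Csk, which holds Src-family kinases inactive, had 57.9 ± 3.16 CPM in WT and 59.1 ± 1.14 in NASH (log2 fold change 0.03 ± 0.08 SE, edgeR adjusted p = 0.822), and 0.39 with library totals (adjusted p = 0.0436). The lowest value of the list was −0.05 for Ptpn11, the phosphatase SHP-2 (adjusted p = 0.769).

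The kinases were also set against the inhibitors within each library. Syk less Inpp5d, in log2 CPM, was 0.64 ± 0.18 in WT and 0.74 ± 0.15 in NASH (SD, n = 4 each), and the groups overlapped, as they did for Fgr less Inpp5d. Lyn less Inpp5d was 3.05 ± 0.38 and 1.82 ± 0.45, with every NASH library below every WT library, as for 69.2% of all genes less Inpp5d, so this is near what most genes show. Syk less Ptpn6 was 1.24 higher in NASH without overlap, and 5.13% of all genes less Ptpn6 had every NASH library above every WT library. Fgr less Ptpn6 was 1.46 higher, with the groups barely separate at −2.74 in the highest WT and −2.73 in the lowest NASH library. Lyn less Ptpn6 overlapped at 0.89 ± 0.25 and 0.80 ± 0.04. These within-library differences are given as descriptions, without a test.

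General macrophage markers moved with these genes. Of 10 tested markers 7 rose, with a median log2 fold change of 2.32, beside 12.9% of all genes called higher. The summed level of the 10 markers was 106 to 329 CPM in WT and 563 to 2001 CPM in NASH. Adgre1 (listed in the table as Emr1) did not pass (log2 fold change 1.38, edgeR adjusted p = 0.163), and Csf1r, a defining macrophage receptor, was under 1 CPM in every library. Less the mean log2 CPM of the 10 markers, Fcgr1, Fcgr4, Fcer1g, Syk and Fgr overlapped between the groups. Fcgr3 less the markers was 1.24, 1.03, 1.0 and 0.56 in WT and 1.5, 1.28, 1.24 and 1.67 in NASH, with the groups barely separate. Over all genes ranked in this way, 0.567% had every NASH library above every WT library. Lyn less the markers was 3.06 ± 0.38 in WT and 1.71 ± 0.54 in NASH, below in every NASH library, as were 68.0% of all genes. The part of macrophage number in these results was not tested.

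**Figure D3:**
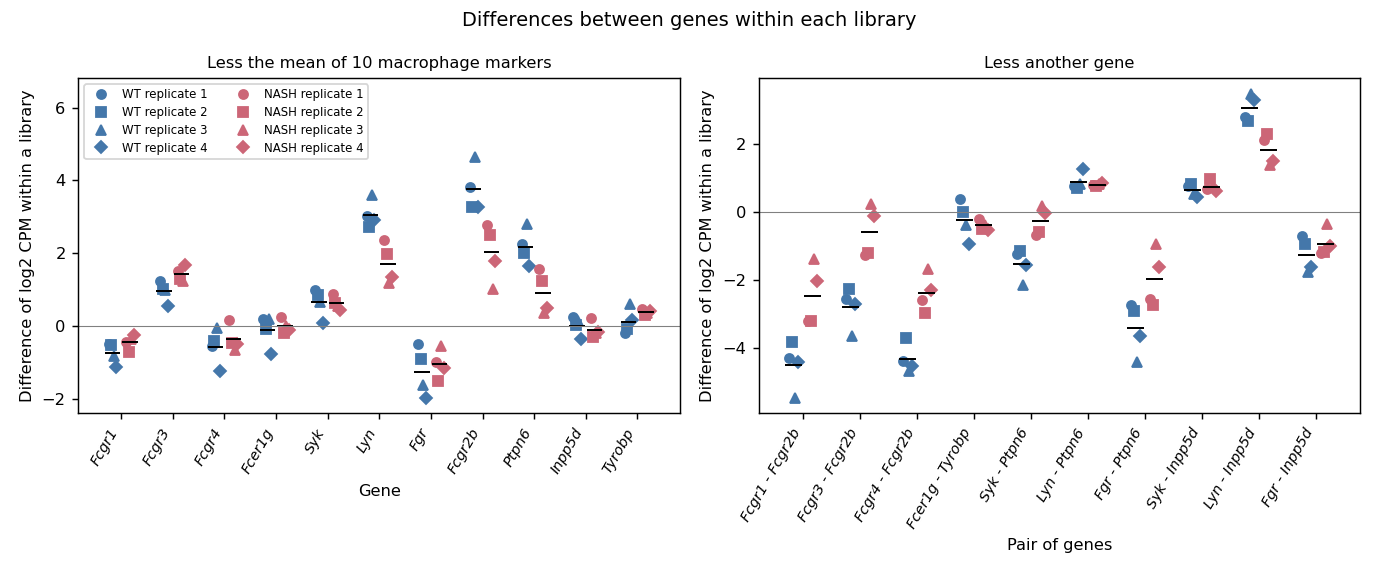
Differences of log2 CPM within each library, WT in blue and NASH in red with a black line at the group mean; the left panel takes each gene less the mean of 10 macrophage markers, the right panel takes one gene less another. On the left Lyn, Fcgr2b and Ptpn6 are lower in each NASH library, and on the right the activating receptors less Fcgr2b are higher in each NASH library.

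Of 8 tested markers of resident Kupffer cells, 1 rose, 1 fell and 6 did not pass, with a median log2 fold change of 0.025. This stands beside 12.9% of all genes called higher and 6.00% called lower. Cd5l rose by 2.52 on the log2 scale (edgeR adjusted p = 0.0136), and Cd163 fell by 1.28 (edgeR adjusted p = 0.00749). Clec4f and Timd4 did not pass (log2 fold changes 0.67 and −1.10, adjusted p = 0.103 and 0.153). Neutrophils also carry these receptors, Syk and Fgr. Their summed markers were 0.959 to 6.85 CPM in WT and 3.35 to 87.5 CPM in NASH, highest in NASH replicate 3, where all 7 genes were also highest. All 4 tested neutrophil markers had positive log2 fold changes, with a median of 3.03, and in each the groups overlapped. None of these 4 passed in edgeR, where 2 had an unadjusted p under 0.05, and DESeq2 called 2 higher and limma-voom 0. Ly6g and Csf3r, which define neutrophils, were under 1 CPM in every library. T and NK cell markers summed to 2.52 to 4.62 CPM in WT and 3.06 to 5.63 CPM in NASH, and Cpa3, a mast cell marker, was under 1 CPM. All 6 hepatocyte markers had negative log2 fold changes, with a median of −0.84. In 4 of them every NASH library lay below every WT library, as for 12.2% of all genes tested. Of these 6, 1 was called lower in edgeR (6.00% of all genes), 2 by an unadjusted p under 0.05, 3 by DESeq2 and 1 by limma-voom, and 0 were higher by any of these. The part of neutrophils and hepatocytes in the results was not tested.

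**Figure D4:**
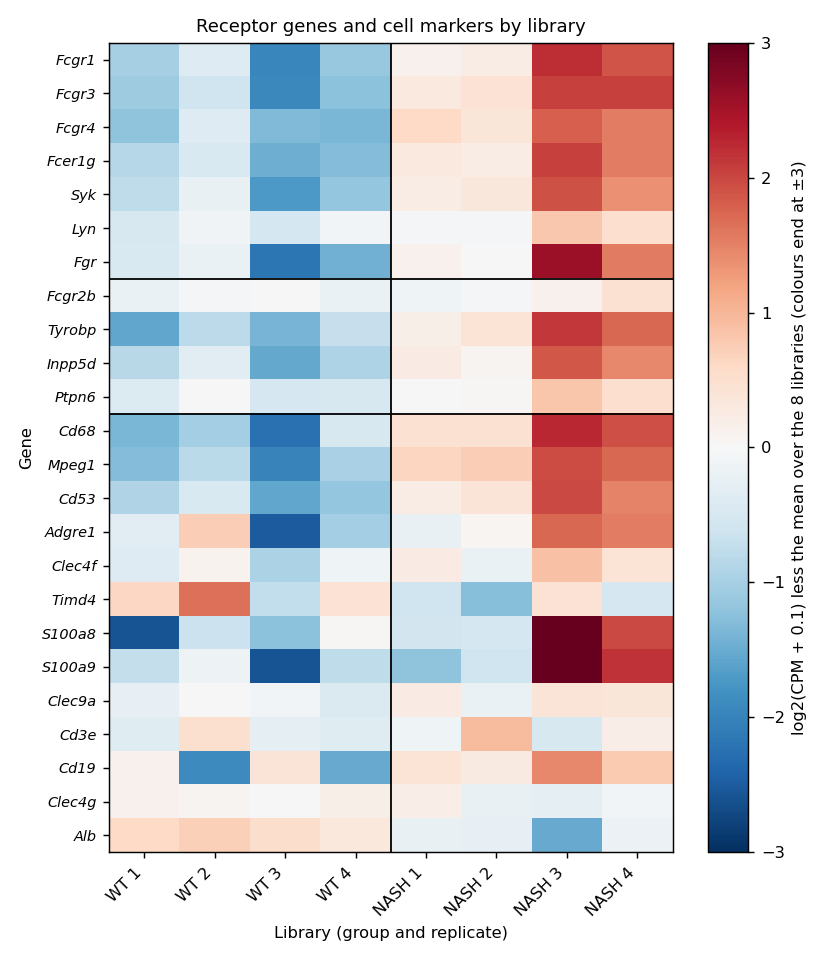
Log2(CPM + 0.1) less the mean over the 8 libraries, for the 7 genes (top), Fcgr2b, Tyrobp, Inpp5d and Ptpn6 (middle) and cell markers (bottom), with colours ending at ±3. NASH replicates 3 and 4 are the reddest columns for the 7 genes and for Cd68, Mpeg1 and Cd53, and S100a8 and S100a9 are also highest in those libraries.

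The genes most like the 7 in profile were sought by Pearson r to their mean standardised log2 CPM. Over the 8 libraries the 5 closest were Inpp5d at r = 0.9988, Dock2 at 0.9981, Cd5l at 0.9978, Msn at 0.9969 and Cd53 at 0.9969. Such values were common: 1030 of 12344 genes, 8.34%, had r above 0.9, and the libraries share the group difference. Within the 4 NASH libraries the closest were Crip1, Fam110b, Ms4a6d, Ctsb and Slc37a2, and 1806 genes, 14.6%, had r above 0.9. Among the 7 genes, r to their own mean ran from 0.944 for Lyn to 0.998 for Fcgr1.

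Fcgr4, Fcgr3 and Fcer1g lie on 1 stretch of chromosome 1, with starts 46.0 kb apart for Fcgr4 and Fcgr3 and 215.4 kb apart for Fcgr4 and Fcer1g. Within 100 kb of that stretch the table held 15 other genes, of which 14 were tested: none rose, 2 fell and 12 did not pass in edgeR, beside 12.9% of all genes called higher and 6.00% called lower. Counts this small are near that background. None was higher by an unadjusted p under 0.05, by DESeq2 or by limma-voom (0 of 14 each). Pcp4l1 fell by 1.60 on the log2 scale (edgeR adjusted p = 0.00368). Nr1i3, the nuclear receptor CAR of hepatocytes, fell by 1.11 (adjusted p = 0.0259), and lost its call without WT replicates 1, 2 or 3 or NASH replicate 4 (adjusted p = 0.0548 to 0.0765). Fcgr2b, whose start lies 42.4 kb before that of Fcgr4, did not pass.

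**Figure D5:**
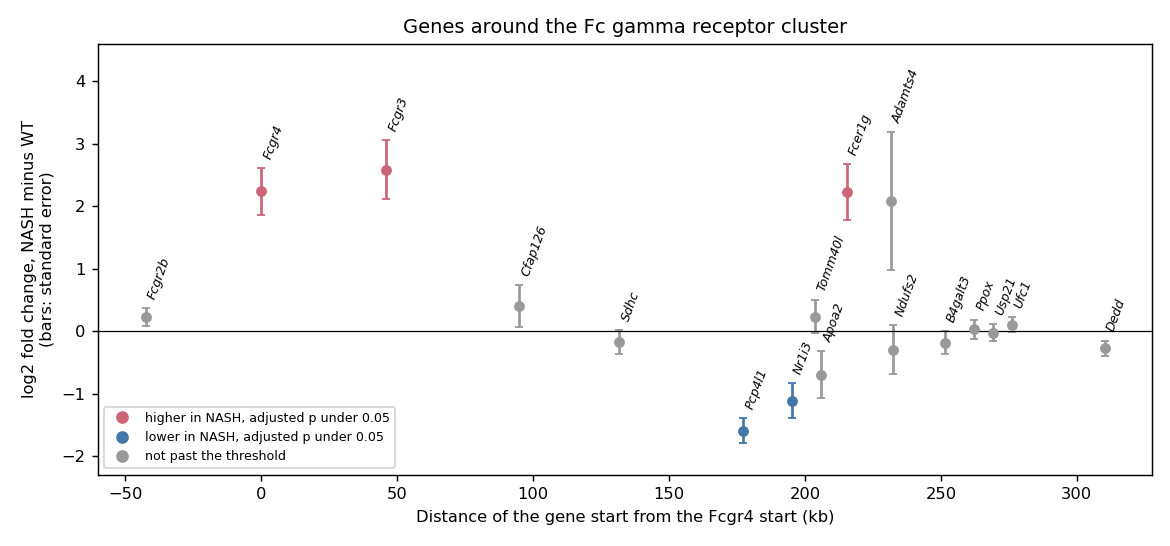
Log2 fold change of NASH minus WT with standard error bars (n = 4 libraries a group) for tested genes around the receptor cluster, placed by distance in kb from the Fcgr4 start. Fcgr4, Fcgr3 and Fcer1g stand above 2, genes between them lie near or below 0, and Adamts4 at 2.09 did not pass.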

How the data were processed

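The authors deposited unnormalized counts of reads for 16122 protein-coding genes, per the file headers. HISAT2 and HTSeq 0.9.1 are named in the submitters' processing notes, with builds mm9 and mm10 and no roles. The strand setting and annotation used were not given in the sources used here. Trizol RNA went into a TruSeq Stranded Total RNA kit, per the labels' protocols. The table's Control columns were read as the WT group, the only other group. The 8 further per-sample columns, the authors' normalized values, were not used.

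Counts were scaled by TMM and filtered by filterByExpr in edgeR 4.0.16 (R 4.3.3). NASH was set against WT with its robust quasi-likelihood F-test on 8 libraries, Benjamini-Hochberg adjusted over 12351 genes, threshold 0.05, two-sided. SE is the log2 fold change over the root of F. The biological coefficient of variation was 29.2%. Log2 CPM used a prior count of 2. The script was tested on simulated data.

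The 7 genes and the lists were chosen with earlier results of these data known. Named were the 7 genes, 22 genes by role, each list's member with the smallest p in each direction, and the 5 genes closest in profile; single values of some listed kinases are not reported here. Coordinates are from GENCODE on GRCm38. Alternatives were other scalings, filters, DESeq2 1.42.0, limma-voom 3.58.1, a replicate block and leaving out each library. Same-numbered libraries did not deviate together (r = 0.0622, −0.209, −0.102 and −0.0223), so the numbers were not taken to pair them.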

Additional observations from a re-analysis of the deposited data

Results flagged for a closer look

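Fcgr4 in WT replicate 2, at 5.58 CPM, stood apart from the other 3 WT libraries. Its gap to the next WT library was 0.874 of the group's range, above Dixon's critical value for 4 samples. Of 14 groups looked at, 1 was flagged in this way, and chance flags about 1 in 20.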

How the results depend on the processing

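Of the 7 genes, 6 were called, and 3 to 7 with single libraries left out, lowest without WT replicate 1 or WT replicate 4. Over the pathway lists 58 genes were called, 23 to 65 with single libraries left out and 35 by limma-voom. Over all genes 2338 were called, 821 to 3742 with single libraries left out and 3527 by the DESeq2 Wald test. With library totals in place of TMM the all-gene median shifted by 0.359 on the log2 scale, and 3071 genes were higher and 220 lower, against 1597 and 741. No log2 fold change of the 7 genes changed sign under any alternative run. With single libraries left out the log2 fold changes ran from 2.03 to 2.76 for Fcgr1, 2.29 to 2.82 for Fcgr3, 1.95 to 2.53 for Fcgr4, 1.79 to 2.45 for Fcer1g, 1.61 to 2.30 for Syk, 0.43 to 0.75 for Lyn and 1.64 to 2.71 for Fgr. By limma-voom Fcgr1 at 2.37 and Fgr at 2.35 lost the call, as did Fgr at 2.36 without a low-count filter. Lyn gained it with library totals at 1.05 and by DESeq2 at 0.63. The cause was not tested.

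With a replicate block, which the pairing check did not call for, 1 of the 7 genes, 13 pathway genes and 618 genes in all were called. The 1 gene was Fcgr4, at a log2 fold change of 2.18 and an edgeR adjusted p of 0.04999, only just under the threshold. The log2 fold changes under the block that missed the threshold were 2.25 for Fcgr1, 2.41 for Fcgr3, 2.06 for Fcer1g, 1.92 for Syk, 2.10 for Fgr and 0.60 for Lyn, which also missed it without the block. Their edgeR adjusted p ran from 0.0592 for Fcgr3 to 0.162 for Fgr. Genes of few counts are measured less precisely, such as Fgr at 27 counts in WT replicate 3. That library had the largest total, at 32684719 counts.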
